A study of Mus musculus with 40 samples.

Results

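Hippocampal astrocytes of mice that resisted social defeat were compared with those of undefeated mice through the RNA bound to their ribosomes. The comparison held 6 of the 40 libraries of the series, the 3 that the labels name hippocampus resilient and the 3 that they name hippocampus control. All mice carried the Tg(Aldh1l1-EGFP/Rpl10a)JD130Htz transgene, in which the astrocyte promoter of Aldh1l1 drives ribosomal protein L10a fused to EGFP. Tagged ribosomes were pulled down from dissected tissue with antibodies to EGFP and the RNA they held was sequenced (TRAP-seq).

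The resilient mice met an aggressive CD1 mouse in direct contact for 10 minutes a day over 10 days, lived behind a divider in the aggressor's cage, and afterwards had a social interaction index above 1. The control mice were group housed in the same room, were never attacked and also had an index above 1, so defeat and housing differ together between the groups and cannot be told apart. Tissue was taken 2 days after the last defeat. Each library was a pool of hippocampi from 2 mice, from adult animals whose strain background, sex and exact age are not given in the sources used here. Another hippocampal group of 5 libraries, defeated mice with an index below 1 (stressed, also called susceptible), entered the statistical fit to share its estimate of the spread and is cited only beside results on the other 2 groups.

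Astrocytes clear glutamate and potassium from around synapses, feed neurons with lactate and lipids, and carry receptors for noradrenaline, serotonin and adrenal steroids. The hippocampus is rich in glucocorticoid receptors and helps to shut off the hormonal stress response. Social defeat is used as a model because part of the exposed animals keep normal social behaviour, and the resilient animals allow what accompanies exposure to be separated from what accompanies avoidance.

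The 6 libraries held 21.8 to 28.1 M counts in genes and detected 18185 to 18799 genes each. The most abundant gene of every one of them was Aldoc, a glycolytic enzyme that astrocytes make in large amounts, with CPM of 26736, 19909 and 20673 in the control and 28496, 24718 and 19505 in the resilient libraries, where CPM is counts per M counts after scaling by TMM factors. The 24 astrocyte markers together gave 84712, 54715 and 52464 CPM in the control and 67524, 64906 and 57783 in the resilient libraries. The 16 general neuronal markers gave 2226, 1892 and 4902 and 2757, 3279 and 2818. Astrocyte RNA therefore led in each library, with RNA of other cells present throughout. In bulk libraries such as these, fewer cells of a type and less RNA per cell cannot be told apart.

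No gene passed the test between resilient and control hippocampus. Of 15758 genes tested with edgeR's quasi-likelihood test, 0 (0%) had a Benjamini-Hochberg adjusted p under 0.05, and the lowest adjusted p was 0.999964. At an unadjusted p under 0.05 there were 225 genes (1.43%), of which 57 (0.362%) were higher and 168 (1.07%) lower in the resilient libraries. DESeq2 called 0 genes too, with 372 at an unadjusted p under 0.05. The resilient libraries lay wholly above the control libraries in 515 genes (3.27%) and wholly below them in 498 (3.16%). Where no gene differs, a share of about 0.05 is expected at an unadjusted p under 0.05, and the share found was smaller. With so few libraries a group, full separation also arises in genes that do not differ. The shares over all genes cited below are therefore observed shares and not a chance level.

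Precision rested on 3 libraries a group and on a spread shared with the 5 stressed libraries. The median SD of log2 CPM was 0.414 in the stressed, 0.320 in the control and 0.211 in the resilient group. With the 6 libraries only, 0 genes were called and 371 had an unadjusted p under 0.05. The lowest adjusted p in edgeR's test was then 0.610. The standard error (SE) of the fitted log2 difference, resilient minus control, had a median of 0.298 over genes, with a 10th percentile of 0.178 and a 90th percentile of 0.645. The 95% interval of that difference lay inside -1 to 1, a 2-fold change either way, for 9902 genes (62.8%). For those genes a change beyond 2-fold is outside the interval, while for the rest it is not. The median difference over all genes was -0.0225.

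The control libraries lay farther from each other than the resilient libraries did. Between pairs of control libraries the median absolute difference in log2 CPM was 0.328 to 0.429, and 1801 to 2665 genes differed over 2-fold. Between pairs of resilient libraries it was 0.223 to 0.298, with 654 to 867 such genes. The 9 pairs that cross the groups overlapped both ranges of the median, at 0.202 to 0.382 and 1160 to 2001 genes. The SD of log2 CPM was larger in the control than in the resilient group for 11204 genes (71.1%). No pair agreed within sampling noise, since chi-square per degree of freedom was 25.4 to 60.9 in resilient pairs and 93.4 to 151 in control pairs, so all 6 libraries were counted.

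**Figure D1:**
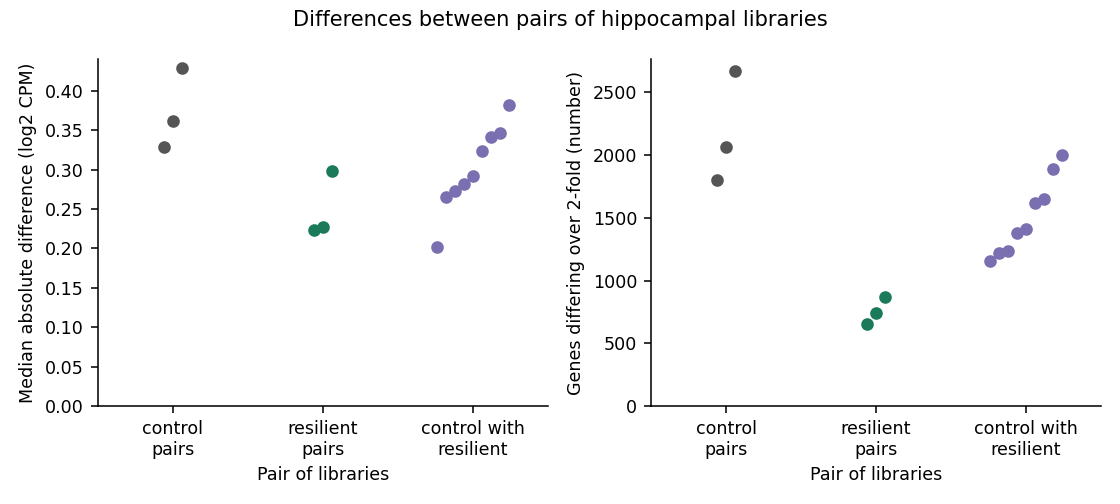
Each point is 1 pair of the 6 hippocampal libraries, sorted by value within its kind: 3 pairs of control libraries, 3 pairs of resilient libraries and 9 pairs that cross the groups. The left axis gives the median absolute difference in log2 CPM over genes and the right axis the number of genes that differ over 2-fold; control pairs reach 2665 genes and resilient pairs at most 867.

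Control replicate 1 stood apart from the other 2 control libraries in astrocyte genes as well as in genes of neighbouring tissue. Apoe, the main lipid carrier that astrocytes secrete, had CPM of 18138, 5309.7 and 5909.6 in the control and 5458, 6996 and 7291 in the resilient libraries. Slc1a2, the glutamate transporter GLT-1, had 2101, 678 and 562 CPM against 700.4, 867 and 989. In both genes control replicate 1 was the highest of the 6 libraries. The resilient libraries overlapped the other 2 control libraries in Apoe and were all above them in Slc1a2, the lowest of them only slightly. High Apoe was not particular to this library. Stressed replicates 4 and 5 had 22359 and 20331 CPM, and the rest of the stressed group 5367.5 to 6418. In the scaling of the 40 libraries, control accumbens ran from 4479 to 21450 CPM and stressed prefrontal cortex from 4401 to 24898. What sets the Apoe level was not tested. On the first principal component, with 44.4% of the variance, control replicate 1 scored 62.1, the other 2 control libraries -30.0 and -50.8, and the resilient libraries 8.07, -3.69 and 14.4. On the second, with 21.2%, control replicates 2 and 3 lay at opposite ends, at -36.6 and 40.5. By the median absolute difference control replicates 1 and 2 were the closest control pair, at 0.328, so no single control library stood apart by every measure.

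The genes with the smallest unadjusted p in each direction, 8 higher and 8 lower once genes under a mean log2 CPM of 1 were passed over, are given next as values. They were picked for low p, so that the groups do not overlap in any of the 16 is part of how they were picked and is not a result. All had the adjusted p of 0.999964.

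Exd1, a relative of exonucleases that takes part in the piRNA pathway, had CPM of 2.64, 1.98 and 1.99 in the control and 4.31, 5.13 and 4.64 in the resilient libraries. The resilient libraries formed a narrow band above the control libraries, with a fitted log2 difference of 1.09 ± 0.25 (SE) and an unadjusted p of 0.00115 in edgeR's test. The stressed libraries ran from 2.48 to 3.74 with a median of 2.87 CPM, from within the control range up to a level below every resilient library.

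Tmem87a, a membrane protein of the Golgi apparatus, had the largest difference of the 16 genes. Its CPM was 0.80002, 0.856 and 0.487 in the control libraries and 3.51, 7.56 and 4.57 in the resilient libraries, a log2 difference of 2.86 ± 0.72 with an unadjusted p of 0.00204 in edgeR's test. Each resilient library was several times above each control library. The stressed libraries ran from 0.764 to 6.298 with a median of 5.31 CPM and so covered both levels.

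The other 6 genes that were higher are better known from metabolism and signalling. Gpt2, the mitochondrial alanine aminotransferase that links glutamate to pyruvate, had CPM of 191, 219 and 174 in the control and 299.9, 274 and 231 in the resilient libraries, a log2 difference of 0.46 ± 0.16. The lowest resilient library was only slightly above the highest control library. Dusp6, a phosphatase that switches off the kinase ERK and is induced by it, had CPM of 67.7, 90.9 and 83.03 in the control and 130.5, 111 and 95.6 in the resilient libraries, a difference of 0.48 ± 0.18. Pcyt1b, an enzyme of phosphatidylcholine synthesis, had CPM of 26.1, 29.3 and 26.4 in the control and 35.4, 39.4 and 35.4 in the resilient libraries, a difference of 0.43 ± 0.15, and its groups were narrow. Dph6, which helps to make the diphthamide residue of elongation factor 2, had CPM of 26.4, 17.9 and 26.1 in the control and 33.1, 41.3 and 31.4 in the resilient libraries, a difference of 0.59 ± 0.20. The remaining pair was low in level. Stab2, a scavenger receptor for hyaluronan, differed by 1.11 ± 0.42, with 1 resilient library at 7.59 CPM and 5 libraries between 1.72 and 3.93. Nrros, which anchors latent TGF-beta on microglia, differed by 0.58 ± 0.23 at 4.04 to 7.24 CPM.

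Among the genes that were lower, Cdc42ep3, an effector of the small GTPase Cdc42 in the cytoskeleton, had the smallest p. It had CPM of 7.16, 8.52 and 9.26 in the control and 3.81, 4.01 and 4.28 in the resilient libraries, a log2 difference of -1.04 ± 0.26 with an unadjusted p of 0.00198 in edgeR's test. The resilient values were close to each other at about the level where the stressed libraries began, which ran from 3.93 to 7.68 with a median of 5.54 CPM.

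Bmp4, a ligand that drives astrocyte differentiation from neural precursors, had CPM of 4.4001, 5.52 and 3.54 in the control and 1.76, 1.51 and 2.21 in the resilient libraries, a difference of -1.30 ± 0.43. All 3 resilient libraries were below all 3 control libraries, while the stressed libraries, at 1.79 to 6.79 with a median of 3.48 CPM, spanned both. Maf, a leucine zipper transcription factor, had CPM of 6.28, 6.26 and 8.11 in the control and 3.26, 4.01 and 3.89 in the resilient libraries, a difference of -0.89 ± 0.29. The control libraries were between 6.26 and 8.11 CPM and no resilient library passed 4.01.

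Cox7a1, a subunit of cytochrome c oxidase of the heart and muscle type, had CPM of 14.9, 27.5 and 24.01 in the control and 11.3, 11.1 and 14.8 in the resilient libraries, a difference of -0.84 ± 0.25. Nudt14, a hydrolase of UDP-glucose, had CPM of 25.6, 45.3 and 45.1 in the control and 24.6, 23.1 and 24.3 in the resilient libraries, a difference of -0.69 ± 0.23. In both genes control replicate 1 was close to the resilient libraries, and the distance between the groups came mostly from the other 2 control libraries. Rbms1, an RNA-binding protein, differed by -0.57 ± 0.19 at 17.4 to 35.4 CPM, Rgs10, which shortens signalling of G proteins, by -0.73 ± 0.25 at 3.85 to 9.75 CPM, and Fam92b by -1.03 ± 0.36 at 1.11 to 3.73 CPM.

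**Figure D2:**
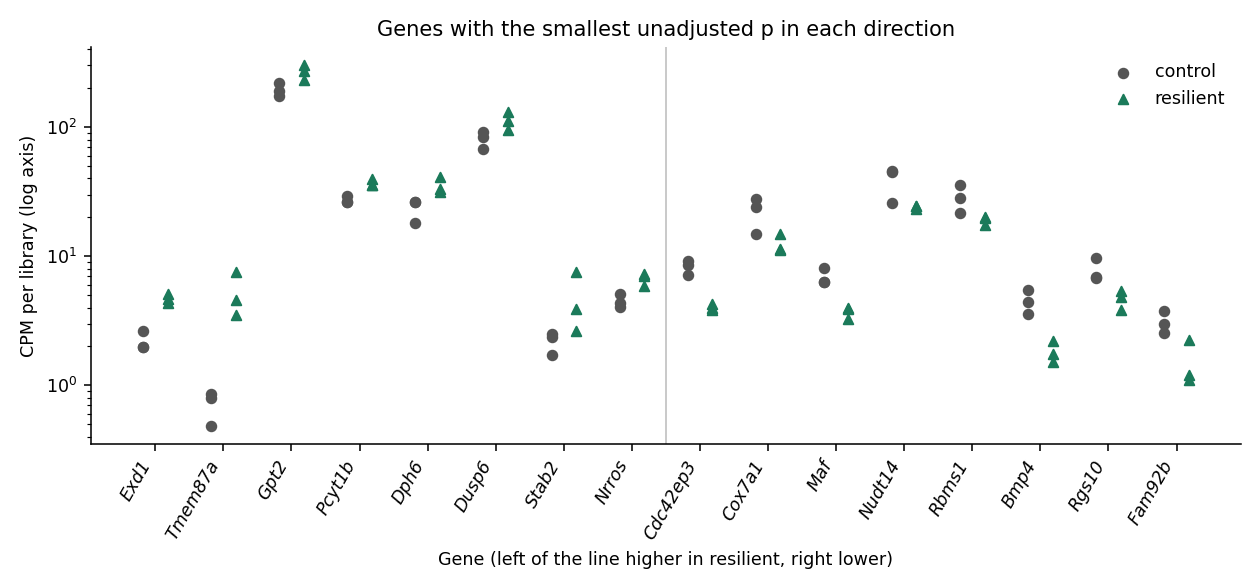
CPM per library on a log axis for the 8 genes with the smallest unadjusted p that were higher in resilient hippocampus (left of the line) and the 8 that were lower (right); circles are the 3 control and triangles the 3 resilient libraries. Tmem87a shows the widest distance, from at most 0.856 CPM in control to at least 3.51 in resilient libraries, and none of the 16 genes passed the adjusted test.

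The sign of most gene lists depended on single libraries. When each of the 6 libraries was left out in turn, the median difference changed sign in 26 of 37 lists, and in 36 of 37 it changed sign or moved by over 1.5 times, choroid plexus markers being the exception. The counts of positive and negative members given below describe these 6 libraries only. Apart from the reference genes, the members named from a list are those with the smallest p in it. That the groups do not overlap in some of them is therefore part of how they were picked and is not a result. Over all genes the resilient libraries lay wholly above in 3.27% and wholly below in 3.16%.

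Genes that define the astrocyte overlapped between the groups. Of 24 astrocyte core genes, 10 had a positive and 14 a negative difference, with a median of -0.032, beside -0.0225 over all genes, and in 0 of the 24 did the libraries of the groups not overlap, beside 3.27% above and 3.16% below over all genes, which is too few in a list of this size to read from. With single libraries left out the list ran from 5 of 24 positive with a median of -0.20 without control replicate 3 to 24 of 24 positive with a median of 0.28 without control replicate 1. Aldh1l1, the folate enzyme whose promoter drives the tag, had CPM of 583, 322 and 476 in the control and 715, 539.8 and 337 in the resilient libraries, a difference of 0.21 ± 0.32. Gfap, the intermediate filament that rises in reactive astrocytes, had 6386, 8040.2 and 6321 CPM in the control and 7747, 7642 and 7535 in the resilient libraries, a difference of 0.14 ± 0.29. The resilient Gfap values were nearly equal and lay inside the control range. Aqp4, the water channel of astrocyte endfeet, differed by -0.0062 ± 0.42, and Gja1, the gap junction protein connexin 43, by 0.0090 ± 0.42. For Aldh1l1, Aqp4 and Gja1 the sign of the difference depended on single libraries. Without control replicate 1 it was 0.33 for Aqp4, 0.45 for Slc1a2 and 0.22 for Apoe, against -0.0062, -0.39 and -0.57 with it.

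Transcription factors that shape astrocytes had small positive differences in 15 of 18 genes, with a median of 0.11. Rorb, a nuclear receptor, had CPM of 163, 144 and 104 in the control and 205, 163 and 144 in the resilient libraries, and Rfx4, a factor of ciliated and astroglial cells, 207, 174 and 154 and 264, 214 and 169.9. Both overlapped between the groups. Without control replicate 3 the count was 6 positive and 12 negative, with a median of -0.081.

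Genes of glutamate and GABA handling had negative differences in 16 of 19 members, with a median of -0.096, and turned to 14 positive of 19, with a median of 0.19, once control replicate 1 was left out. Abat, the enzyme that degrades GABA, had CPM of 205, 212 and 186 in the control and 258, 233 and 196 in the resilient libraries. In genes of potassium, water and gap junctions 11 of 18 were negative, and the extreme member was Trpv4, a cation channel gated by swelling that choroid plexus also makes, with CPM of 0.64001, 19.4 and 21.3 in the control and 3.39, 6.08 and 1.53 in the resilient libraries. Control replicate 1 had almost none of it. With single libraries left out that list ran from 3 of 18 positive with a median of -0.25 without control replicate 2 to 15 of 18 positive with a median of 0.25 without control replicate 1. The groups overlapped in each of these genes.

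Lipid genes gave a mixed picture. Of 18 genes of lipid transport 14 were negative, with a median of -0.46, among them Pltp, which transfers phospholipids between lipoproteins, at CPM of 11.8, 38.5 and 39.97 in the control and 12.4, 17.8 and 15.8 in the resilient libraries. Lrp1, a receptor that takes up apolipoprotein E, had 86.4, 25.8 and 61.3 and 24.4, 36.9 and 37.2. Without control replicate 1 the count was 10 negative and 8 positive, and the median was -0.022. Of 22 genes of sterol and fatty acid synthesis 11 were positive and 11 negative, and 2 had an unadjusted p under 0.05, both higher, against 0.362% of all genes in that direction. Without control replicate 1 the list was 19 of 22 positive with a median of 0.15.

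Idi1, which isomerises isopentenyl diphosphate for sterol synthesis, had CPM of 58.3, 59.5 and 57.2 in the control and 85.5, 69.7 and 75.3 in the resilient libraries, a difference of 0.40 ± 0.18. Lss, the lanosterol synthase that closes the first sterol ring system, had CPM of 60.4, 56.7 and 59.3 in the control and 71.9, 73.5 and 68.5 in the resilient libraries, a difference of 0.28 ± 0.13. In each gene the control libraries were within a few CPM of each other and all 3 resilient libraries were above them. In the list of 22 the groups did not overlap in 2 genes above and 2 below, beside 3.27% and 3.16% of all genes. Hmgcs1, which makes the precursor of mevalonate, had 376, 340.3 and 472 and 541, 456 and 412 CPM and overlapped. Acaca, the first enzyme of fatty acid synthesis, lay the other way, with CPM of 18.96, 10.2 and 12.8 in the control and 8.16, 10.1 and 9.17 in the resilient libraries.

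In energy metabolism 16 of 24 genes of glycolysis, glycogen and lactate were positive, with a median of 0.090, and the list ran from 3 of 24 positive with a median of -0.10 without resilient replicate 1 to 22 of 24 positive with a median of 0.17 without resilient replicate 3. Pygb, the brain form of glycogen phosphorylase, had 1254, 1231 and 1290.3 CPM in the control and 2019.8, 1724 and 1193 in the resilient libraries, so 2 resilient libraries were high and the last was below all control libraries. Pygm, the muscle form that astrocytes also make, had the same shape at 194, 161 and 173 and 263, 224 and 155 CPM.

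Because defeat raises corticosterone, genes that the glucocorticoid receptor induces were looked at as a group. Of 20 members 12 were positive and 8 negative, with a median of 0.036, and single libraries moved that median between -0.081 without control replicate 3 and 0.17 without control replicate 1. Fkbp5, a chaperone that restrains the receptor and is among its most used target genes, had CPM of 9.8002, 14.2 and 30.04 in the control and 15.1, 18.3 and 21.95 in the resilient libraries, a difference of 0.037 ± 0.61, and the control libraries spanned the resilient ones. Tsc22d3, which encodes the anti-inflammatory protein GILZ, had CPM of 709, 573 and 456 in the control and 750.0, 717 and 727 in the resilient libraries, a difference of 0.34 ± 0.19, with the resilient libraries above. Cdkn1a, the cell cycle inhibitor p21, had CPM of 13.9, 17.3 and 12.98 in the control and 10.7, 10.6 and 10.3 in the resilient libraries, a difference of -0.49 ± 0.19 with an unadjusted p of 0.0267 in edgeR's test, with the resilient libraries below. Sgk1, a kinase induced by steroids, had 22.7, 121 and 165 and 38.7, 57.6 and 37.7 CPM, and control replicate 1 was the lowest library. At 2 days after the last defeat the list thus showed members on both sides.

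Immediate early genes, which mark recent activity, were 8 positive and 10 negative, and without control replicate 3 they were 10 and 8. Arc, an activity gene of neurons, had CPM of 25.4, 36.2 and 71.7 in the control and 18.6, 20.7 and 23.6 in the resilient libraries, all resilient values below the control values, with a difference of -1.08 ± 0.70. Jun had 142, 128 and 161 and 231, 162 and 132 CPM and overlapped.

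Clock genes had positive differences in 15 of 18 members, with a median of 0.18. Tef, an output factor of the clock, had CPM of 220.1, 266 and 216 in the control and 287, 291 and 280.5 in the resilient libraries, and Nr1d2, which encodes the repressor REV-ERB beta, 67.2, 73.4 and 76.8 and 95.5, 84.2 and 77.7. In both genes the resilient libraries were above the control libraries. Bhlhe40 and Cry2, repressors in the same loop, overlapped, and resilient replicate 3 was the lowest resilient library in each. Without resilient replicate 1 the count was 12 of 18 and the median 0.096. The hour of dissection is not given in the sources used here, and its part in these values was not tested.

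Receptors for neuromodulators were 10 positive and 11 negative of 21 tested, and 5 and 16 without resilient replicate 3. Htr1a, the serotonin receptor 5-HT1A, had CPM of 2.40005, 2.45 and 4.87 in the control and 5.86, 4.89 and 6.46 in the resilient libraries, a difference of 0.82 ± 0.56, and all resilient libraries were above all control libraries. Tacr1, the substance P receptor, also lay above at under 1 CPM in all 6 libraries. Adra1b, the noradrenaline receptor through which astrocytes answer arousal, had 9.16, 2.53 and 1.68 and 2.38, 2.46 and 2.82 CPM, high in control replicate 1 only. Genes of calcium and cyclic AMP signalling were 9 positive and 17 negative, which became 14 and 12 without control replicate 3. Stim1, the calcium sensor of the endoplasmic reticulum, had CPM of 14.4, 10.2 and 14.6 in the control and 7.61, 10.2 and 9.71 in the resilient libraries.

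Secreted factors for synapses were 7 positive and 16 negative of 23, and 15 and 8 without control replicate 1. Thbs2, a thrombospondin that promotes synapse formation, had CPM of 1.56, 2.29 and 3.5003 in the control and 1.51, 1.69 and 1.28 in the resilient libraries, and Chrdl1, which matures AMPA receptors at synapses, 23.4, 3.19 and 2.79 and 4.14, 3.48 and 3.68. The Chrdl1 difference of -1.38 ± 1.19 rested on control replicate 1, since the other 5 libraries were between 2.79 and 4.14 CPM. Trophic factors and their receptors were 7 positive and 13 negative, and 12 and 8 without control replicate 1. Pdgfa, a growth factor for oligodendrocyte precursors, had CPM of 24.8, 31.3 and 24.2 in the control and 18.9, 20.1 and 24.02 in the resilient libraries, with the resilient values just below the control values.

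Chaperones and genes of the unfolded protein response were negative in 26 of 28 members, with a median of -0.24 and a range of -0.50 to 0.31. Sdf2l1, which serves the chaperone BiP, had CPM of 12.1, 14.5 and 13.2 in the control and 11.004, 8.09 and 10.2 in the resilient libraries, and Pdia4, a disulfide isomerase of the endoplasmic reticulum, 28.7, 17.2 and 29.3 and 19.3, 19.5 and 14.6. Sdf2l1 was below in all resilient libraries and Pdia4 was not. With single libraries left out the count of negative members was 21 to 26 of 28, lowest without control replicate 3, and the median ran from -0.44 without control replicate 2 to -0.16 without control replicate 1. Of the 28 genes 0 had an unadjusted p under 0.05, beside 1.43% of all genes, a share that leaves too few in 28 genes to read from.

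Markers of reactive astrocytes had no common sign. The pan-reactive list was 6 positive and 5 negative, the neurotoxic-type list 6 and 6, and the protective-type list 4 and 6. Cp, which encodes the copper carrier ceruloplasmin, had CPM of 2.76, 1.24 and 3.81 in the control and 1.05, 1.195 and 1.21 in the resilient libraries, and Hspb1, a small heat shock protein, 6.0001, 13.3 and 14.5 and 6.401, 4.46 and 5.82. Cp lay below in all resilient libraries, and Hspb1 overlapped through control replicate 1. Ggta1, of the neurotoxic-type list, lay above at 2.44, 2.41 and 2.88 and 3.39, 3.59 and 3.82 CPM. Cd109, of the protective-type list, had CPM of 1.40003, 1.05 and 1.77 in the control and 0.502, 0.633 and 0.178 in the resilient libraries, a difference of -1.67 ± 0.58 with an unadjusted p of 0.0144 in edgeR's test. These lists come from studies of inflamed or ischaemic brain, and C1qa and Ctss, which mark the microglia that induce such states, were at 0.669 to 5.0001 CPM in all 6 libraries.

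In inflammation and growth control the genes named were again those of smallest p in their lists. Nfkb1, a subunit of NF-kB, had CPM of 10.9, 9.02 and 7.18 in the control and 6.903, 6.96 and 5.996 in the resilient libraries, all resilient values below the control values, with a difference of -0.45 ± 0.21, in a list of 8 positive and 11 negative members. Interferon and antigen presentation genes were 11 positive and 9 negative, and the high member Oasl2 rested on 1 resilient library at 18.6 CPM against 8.48 to 11.003 CPM in the other 5. Targets of Notch, BMP, Wnt and hedgehog signalling were 10 positive and 12 negative, from 3 and 19 without control replicate 3 to 16 and 6 without control replicate 1. Axin2 and Lef1, of the Wnt targets, were below in all resilient libraries, with CPM of 10.1, 8.21 and 7.001 in the control and 4.48, 6.36 and 6.103 in the resilient libraries for Axin2 and a difference of -0.58 ± 0.26. Antioxidant genes were 13 positive and 9 negative, but 7 and 15 without control replicate 3 or resilient replicate 1. Sod1, the cytosolic superoxide dismutase, had CPM of 250.3, 181 and 177 in the control and 162, 145 and 164 in the resilient libraries, with the resilient values below.

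**Figure D3:**
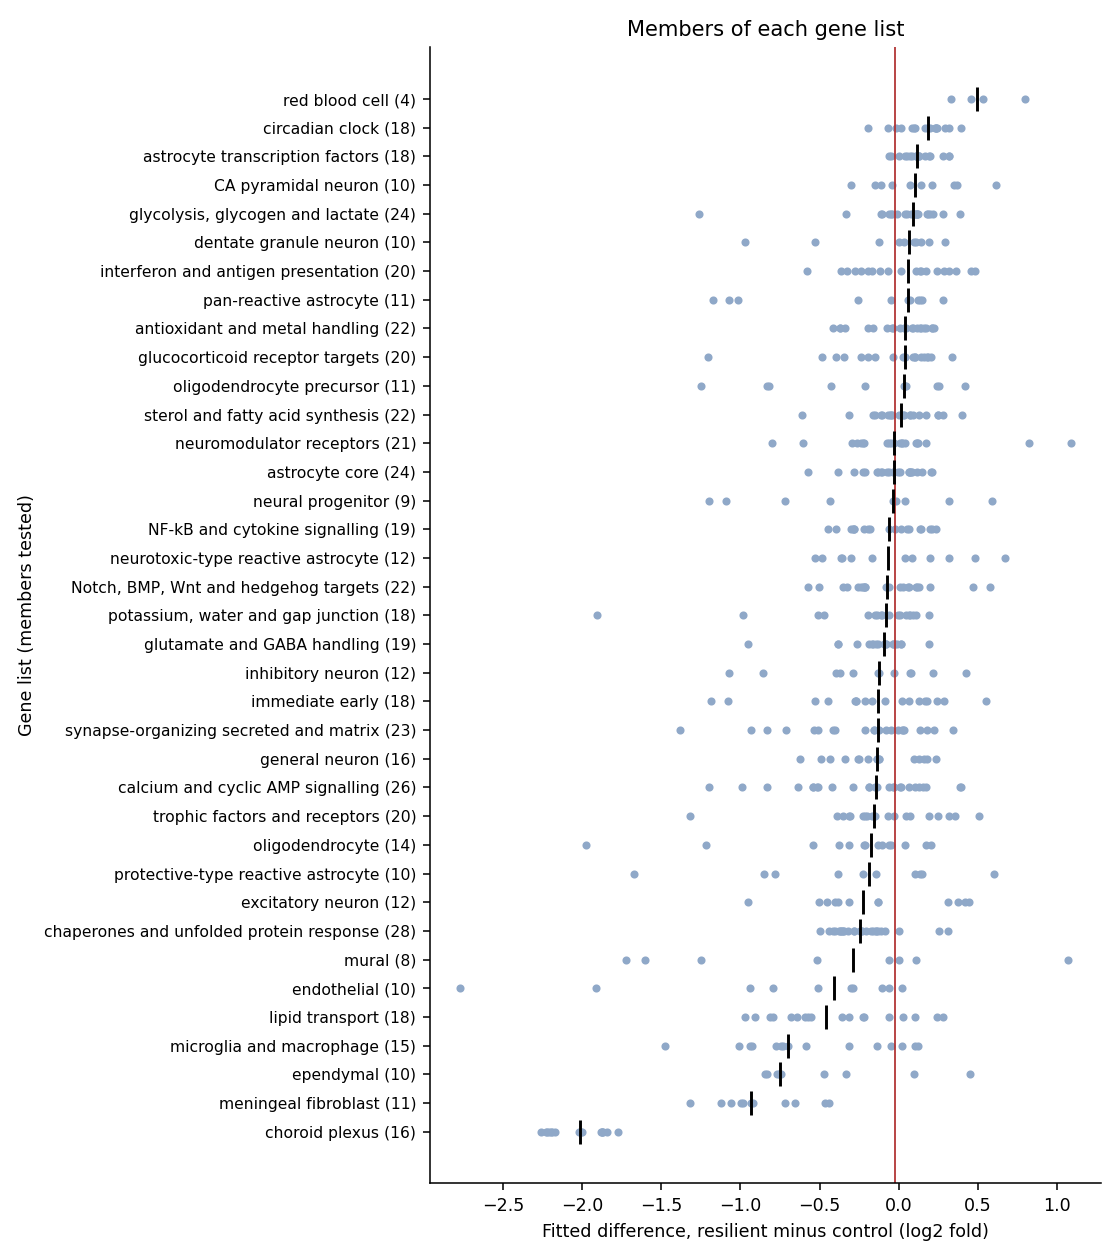
Fitted log2 differences, resilient minus control, of the tested members of 37 gene lists (points), with each list's median (black bar) and the median of all genes (red line). The 16 choroid plexus markers stand together near -2.0 and most astrocyte lists centre near 0 in these 6 libraries; no member of any list passed the adjusted test.

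Markers of other cell types gave the lowest list medians, and in most of them the control libraries differed widely among themselves. All 16 choroid plexus markers had negative differences, from -2.26 to -1.77 with a median of -2.01. In 0 of 16 did the groups not overlap, beside 3.27% above and 3.16% below over all genes. Such a share leaves too few in 16 genes to read from. The summed level of these markers was 62.6, 8014 and 7368 CPM in the control libraries and 943, 1991 and 496 in the resilient libraries. Control replicate 1 was thus the lowest of the 6 and control replicates 2 and 3 the highest. Ttr, the thyroxine carrier that the plexus secretes, had CPM of 48.4, 7298 and 6603 in the control and 831, 1793 and 426 in the resilient libraries, a difference of -2.19 ± 1.70. Otx2, a transcription factor of the plexus, had 1.76, 56.2 and 61.1 and 10.3, 14.9 and 7.25 CPM, and Kcnj13, its potassium channel, 6.56, 84.8 and 98.8 and 11.5, 25.9 and 9.89. Enpp2, an enzyme of both plexus and oligodendrocytes, followed the same order, with 30.7, 896 and 1257 and 178, 319.7 and 56.7 CPM. The deposited sample names have a short form (control replicate 1 and resilient replicates 1 and 2) and a long form (the other 3 libraries). Within the short form all 16 markers were positive, with a median of 4.11, and within the long form all 16 were negative, with a median of -3.39. The short form held 1 control and the long form 1 resilient library, so these medians restate the sums above. In the stressed group the summed level was 62.4 and 11303 CPM in the short form, replicates 4 and 5. It was 221, 7021 and 10253 CPM in the long form, replicates 1, 2 and 3. How much plexus came along with the dissected hippocampi is not given in the sources used here. With the choroid plexus level as a covariate 0 genes were called, and 326 had an unadjusted p under 0.05.

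Ependymal genes showed the same order in part. Of 10 members 8 were negative, with a median of -0.75, which was -0.48 without control replicate 2. Foxj1, the master factor of motile cilia, had CPM of 13.1, 58.3 and 41.3 in the control and 16.1, 23.4 and 23.3 in the resilient libraries. Meningeal fibroblast genes were negative in 11 of 11, with a median of -0.93, and in 10 of 11 with a median of -0.57 without control replicate 3. Igf2, a growth factor of meninges and choroid plexus, had CPM of 36.1, 39.6 and 54.6 in the control and 11.3, 17.1 and 23.7 in the resilient libraries, a difference of -1.32 ± 0.66, and here all resilient libraries were below all control libraries. Col1a2, a collagen chain of fibroblasts, overlapped at 9.88, 1.94 and 7.04 and 3.39, 2.36 and 2.93 CPM.

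Microglial genes were negative in 12 of 15, with a median of -0.70, at low levels. Ctss, a lysosomal protease of microglia, had CPM of 5.0001, 0.894 and 2.92 in the control and 0.669, 1.02 and 1.46 in the resilient libraries, and the median without control replicate 1 was -0.27. Endothelial genes were negative in 9 of 10, but in 6 of 11 without control replicate 3 and in 7 of 11 without resilient replicate 1, where 1 more gene was tested. Cdh5, the cadherin of endothelial junctions, had CPM of 0.36001, 0.0778 and 0.665 in the control and 0, 0.0352 and 0.107 in the resilient libraries, where 1 resilient library had 0 counts, with an unadjusted p of 0.0161 in edgeR's test and overlapping libraries. Vtn, a matrix protein of pericytes, had CPM of 27.2, 6.22 and 29.4 in the control and 5.15, 5.73 and 9.74 in the resilient libraries, a difference of -1.61 ± 0.69, low in control replicate 2 as well as in the resilient libraries. Mural markers were 3 positive and 5 negative, and Rgs5, another pericyte gene, lay the other way, with CPM of 0.52001, 0.428 and 0.9305 in the control and 1.09, 1.23 and 1.61 in the resilient libraries. The 4 tested red blood cell genes were all positive, with Hba-a2, an alpha globin whose near-identical copy can share its reads, at CPM of 5.04, 14.3 and 20.5 in the control and 8.41, 11.6 and 37.5 in the resilient libraries, and all 4 were negative without resilient replicate 3.

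Neuronal genes had no stable sign. General neuronal markers were 5 positive and 11 negative, dentate granule markers 7 and 3, and CA pyramidal markers 6 and 4. The general markers ran from 2 of 16 positive with a median of -0.48 without control replicate 2 to 15 of 16 positive with a median of 0.36 without control replicate 3, the dentate granule markers from 1 of 10 positive with a median of -0.32 without control replicate 1 to 10 of 10 positive with a median of 0.53 without control replicate 3, and the CA pyramidal markers were 8 of 10 positive with a median of 0.57 without control replicate 3 and turned negative in median without control replicate 1 or 2 or resilient replicate 2. Excitatory and inhibitory markers were each 4 positive and 8 negative, and both 8 and 4 without control replicate 3, with medians of 0.34 and 0.14. Neural progenitor markers were 3 and 6. Tubb3, a neuronal tubulin, had CPM of 73.6, 36.4 and 183 in the control and 64.7, 68.7 and 56.9 in the resilient libraries, and control replicate 3 was the highest. Stxbp6, of the dentate granule list, had 48.9, 47.9 and 45.7 and 67.9, 53.9 and 52.5 CPM, above in all resilient libraries. Slc17a6, the vesicular glutamate transporter VGLUT2, had 2.88, 2.99 and 3.28 and 2.47, 2.39 and 1.61, below in all. Oligodendrocyte markers were 3 positive and 11 negative, led by Trf, which encodes transferrin, at CPM of 54.96, 172 and 284 in the control and 65.1, 96.2 and 57.96 in the resilient libraries. Markers of their precursors were 6 positive and 5 negative, and Pdgfra, the growth factor receptor of these precursors, had 2.40005, 4.28 and 4.52 and 1.97, 2.32 and 2.03 CPM, with the resilient values below.

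**Figure D4:**
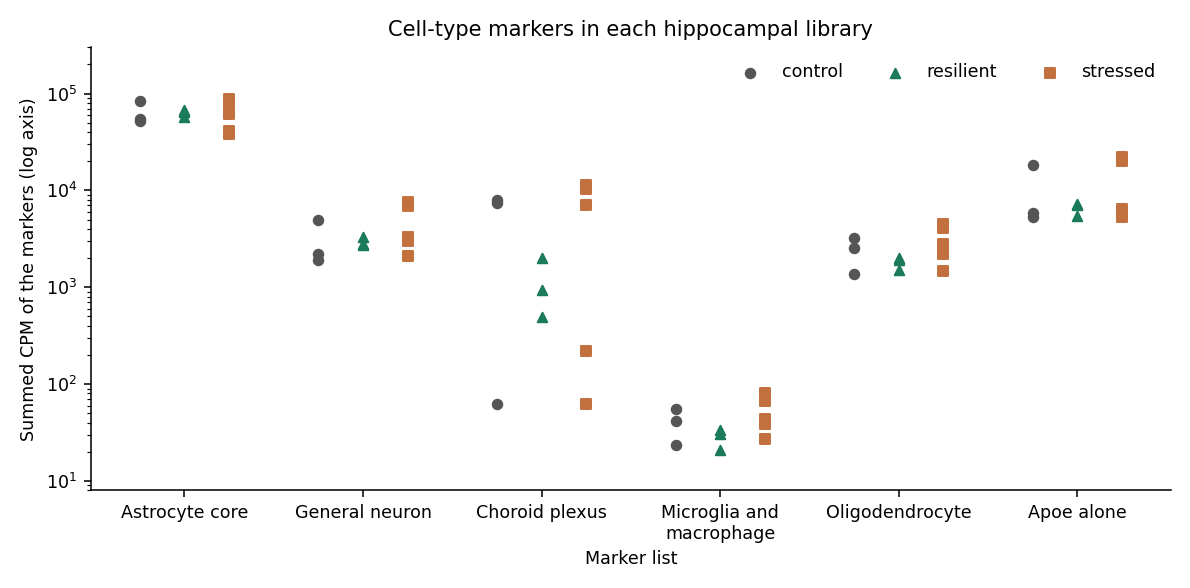
Summed CPM of marker lists and CPM of Apoe alone, on a log axis, in each of the 11 hippocampal libraries: circles control, triangles resilient, squares stressed. Choroid plexus markers range most widely: the control libraries reach from 62.6 to 8014 CPM, and the resilient libraries lie between, from 496 to 1991.

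Whether the resilient-control difference itself depended on the region was tested against the prefrontal cortex (3 control and 4 resilient libraries) and the nucleus accumbens (3 and 3, pools of 4 to 6 mice), in 1 fit of all 40 libraries. Between hippocampus and prefrontal cortex 0 of 16759 genes (0%) passed edgeR's adjusted test, with 394 (2.35%) at an unadjusted p under 0.05. Between hippocampus and nucleus accumbens 0 (0%) passed, with 202 (1.21%). DESeq2 also called 0 genes, with 516 and 254 at an unadjusted p under 0.05. These contrasts share the 6 hippocampal libraries, so their values are not independent of each other or of the differences above. The fit treated libraries of different regions as independent.

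Cdc42ep3 had 15.1, 15.3 and 12.96 CPM in control and 16.7, 14.1, 15.3 and 12.6 in resilient prefrontal cortex, in the scaling of the 40 libraries. Its resilient-control difference there was 0.023 ± 0.27 and in the nucleus accumbens 0.063 ± 0.29, against -1.04 ± 0.30 in the hippocampus. The hippocampal minus cortical difference was -1.07 ± 0.40, and it did not pass the adjusted test. Nudt14 was at 0.032 ± 0.17 in the cortex, -0.069 ± 0.18 in the accumbens and -0.17 ± 0.22 in the caudate putamen. In the hippocampus it was at -0.69 ± 0.18. Tmem87a was at 0.451, 3.41 and 3.75 CPM in control and 3.76, 3.71, 4.57 and 8.77 in resilient cortex, so a control library at a low level was present there too, and its cortical difference was 1.03 ± 0.61.

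By the smallest p the leading named gene whose resilient-control difference was higher in hippocampus than in cortex was Knstrn, a kinetochore and spindle protein. Hippocampus had 0.798, 0.856 and 1.17 CPM in control and 1.48, 2.03 and 1.74 in resilient libraries, while cortex had 2.05, 2.29 and 1.62 and 1.66, 0.936, 0.943 and 1.83 CPM, and the contrast was 1.46 ± 0.44. Esyt1, which tethers the endoplasmic reticulum to the plasma membrane, had a lower difference in hippocampus than in cortex, a contrast of -2.39 ± 0.62. Its CPM was 1.75, 1.99 and 2.604 in control and 0.656, 0.4901 and 0.994 in resilient hippocampus. Cortex had 0.697, 0.999 and 0.253 and 1.32, 0.832, 1.19 and 1.27 CPM. The resilient-control difference of Esyt1 was -1.56 ± 0.44 in hippocampus, 0.83 ± 0.43 in cortex and -0.97 ± 0.45 in the accumbens. In the accumbens contrast Plcxd1, a phospholipase-like protein, had 2.11, 2.72 and 3.298 and 1.52, 1.26 and 1.28 CPM in hippocampus against 4.76, 4.66 and 2.65 and 6.53, 5.03 and 3.601, a contrast of -1.33 ± 0.43. Etnk2, an ethanolamine kinase at a higher level, had a contrast of -1.02 ± 0.33. None of these 4 genes passed the adjusted test.

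**Figure D5:**
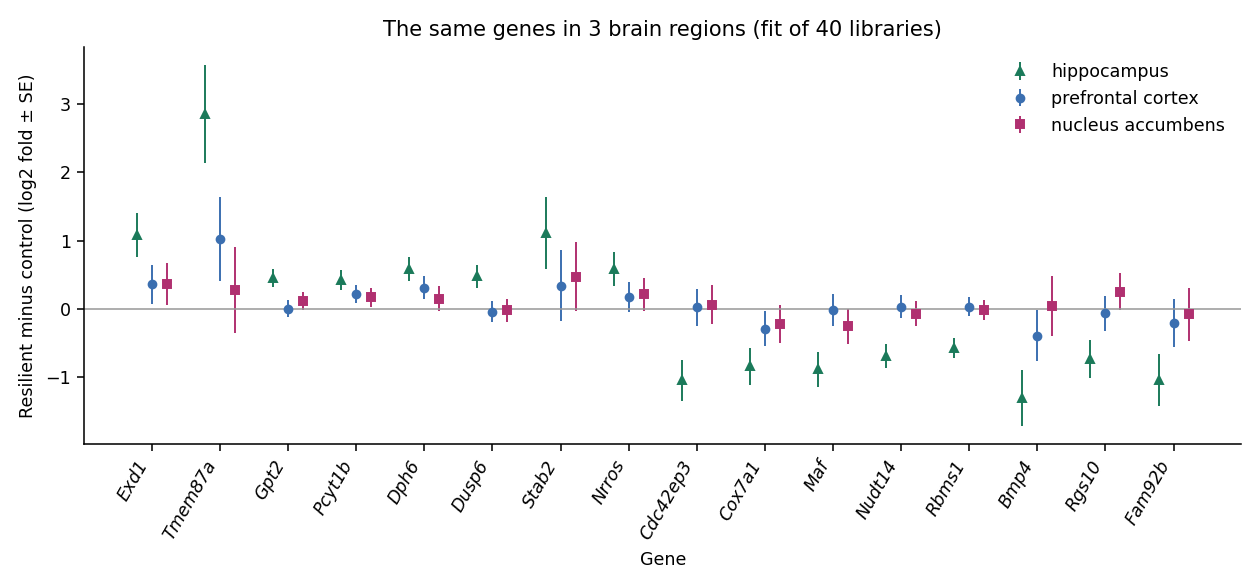
Fitted log2 difference, resilient minus control, with its SE for the 16 genes of the hippocampal comparison in hippocampus (triangles), prefrontal cortex (circles) and nucleus accumbens (squares), from the fit of 40 libraries. The genes were picked in the hippocampus, so its values are wide by choice. Cdc42ep3, at -1.04 in the hippocampus, is at 0.023 in the cortex and 0.063 in the accumbens. It is at -0.34 in the caudate putamen, which is not drawn.

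The stressed hippocampal libraries, set beside these values, differed in 0 genes from control and in 0 from resilient libraries at an adjusted p under 0.05 in edgeR's test. At an unadjusted p under 0.05 there were 1312 (8.33%) and 2718 (17.2%) genes. Of these 3 comparisons, which share libraries, the one between resilient and control had the fewest genes, 225 (1.43%). It set 3 libraries against 3, while the other 2 included the 5 stressed libraries and so differed in power. It also gave 371 of 15221 genes when fitted with its 6 libraries only. The order of the counts therefore does not rank the groups by likeness.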

How the data were processed

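The authors deposited, per the file headers and labels, 1 table per library of whole-number read counts per gene symbol. The 5 closing HTSeq lines outside genes were removed here, as was a row named unknown, with 1 to 4 counts in the 6 libraries. The lines for no feature, ambiguous and not uniquely aligned reads held 18.8% to 19.8% of the counts in genes and all 5 lines. Per the submitters' processing notes STAR 2.0.0e, HTSeq and mm10 were used. Which HTSeq version, gene annotation and strand option were used is not given in the sources used here, so overlapping and near-identical genes may share reads. The 11 hippocampal libraries were fitted in edgeR 4.0.16 (R 4.3.3) after filterByExpr and TMM scaling, with the robust quasi-likelihood F test, two-sided, adjusted by Benjamini-Hochberg over all genes tested and called under 0.05. Region contrasts used 1 fit of 12 groups. CPM uses TMM library sizes. The SE was worked back from the test, as the absolute log2 difference divided by the square root of its F statistic. The 95% intervals rest on this SE. DESeq2 1.42.0, other filters and scalings, left-out libraries, a replicate block, marker covariates and a term for the form of the deposited sample names (short or long) were alternatives. The scripts were tested on simulated counts. P-values measure the spread between pools of mice.

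The 38 lists, the members and the naming rule were chosen with earlier results of these data known. Named genes were the 8 per direction with the smallest p and a mean log2 CPM of at least 1, since fewer than 3 were called, up to 4 members per list by smallest p, up to 5 genes per direction per region contrast and the reference genes Aldh1l1, Gfap, Aqp4, Slc1a2, Gja1, Aldoc, Apoe, Ttr and Fkbp5. The mitochondrial-encoded list had 0 of 13 members in the files. Lists share a few genes, and list members are given as values, with p only for some.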

Additional observations from a re-analysis of the deposited data

Results flagged for a closer look

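The stressed hippocampal group was the only one in the fit with enough libraries to look for a library far from the rest. In 3 of the 34 genes given with a test, 1 of its 5 libraries lay beyond Dixon's limit, and chance alone gives about 1 in 20 independent genes. The 34 genes share the same 5 libraries and were chosen after values were seen, so no excess can be read from this. Cox7a1 was at 18.9 CPM in stressed replicate 5, the highest of the 5. Vtn was at 79.0 CPM in the same library, the highest. Maf was at 3.14 CPM in stressed replicate 4, the lowest.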

How the results depend on the processing

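The count of called genes was 0 under every alternative run, for the hippocampal comparison and for both region contrasts; without each replicate in turn it was 0 to 0. At an unadjusted p under 0.05 the hippocampal comparison gave 145 to 756 genes against 225 in the settings that kept both naming forms of the samples, with 145 without resilient replicate 2, 550 without control replicate 1, 717 in the fit of all 40 libraries, 756 without control replicate 1 and stressed replicates 4 and 5, and 507 without control replicate 3 and stressed replicates 2 and 3. The last 2 settings were chosen after seeing the data. The short naming form alone, 1 control and 2 resilient libraries, gave 2219, and its lone control is assumed to vary like the other groups. A paired fit with a replicate block gave 0 called genes and 328 at an unadjusted p under 0.05 in the hippocampus, and 394 and 187 in the region contrasts. Same-numbered control and resilient libraries showed no common deviation (correlations 0.011, -0.026 and -0.21). Differently numbered ones ran from -0.23 to 0.30. With so few libraries these values cannot show whether the numbers mark pairs. Of the 34 genes given with a test, 26 kept the sign of their difference in all alternatives, the 16 genes of smallest p among them. In those 16 the groups do not overlap. A kept sign with libraries left out therefore follows from how they were picked and is not a result. The 8 of the 34 that changed sign were reference genes, and no value of theirs passed the test. The single-library ranges were -0.082 to 0.43 for Aldh1l1, -0.21 to 0.33 for Aqp4, -0.73 to 0.45 for Slc1a2, -0.20 to 0.37 for Gja1, -0.036 to 0.24 for Aldoc, -0.90 to 0.22 for Apoe, -2.91 to -1.71 for Ttr and -0.27 to 0.60 for Fkbp5. With the naming form as a term the differences were -0.0026 for Aldh1l1, -0.19 for Gja1 and -0.028 for Aldoc. In the long form alone they were -0.22 for Aldh1l1, 0.37 for Aqp4, 0.69 for Slc1a2, -0.038 for Aldoc and 0.40 for Apoe, and in the short form alone -0.48 for Gja1, -0.024 for Aldoc and 4.75 for Ttr. Aqp4 was at 0.00052 with 6 libraries only, 0.037 with the replicate block and 0.0036 with the neuronal covariate, Gja1 at -0.023 with no filter and -0.0012 with the choroid plexus covariate, and Ttr at 0.25 with that covariate. Without control replicate 1 and stressed replicates 4 and 5 the differences were 0.36 for Aqp4, 0.48 for Slc1a2, 0.25 for Apoe and -0.24 for Fkbp5, and without control replicate 3 and stressed replicates 2 and 3 Gja1 was at -0.13. The cause was not tested. Which genes were given with a test and which as values only was decided after their values under the alternatives were seen. Of the 103 list members and other genes given as values only, 59 kept their sign throughout and 44 did not, in 60 of 2149 values, 19 of them in the long form alone and 19 in the short form alone. Choroid plexus markers were positive in 16 of 16 in the short form alone, with a median of 4.11. Low genes such as Cdh5 rest on few counts and their differences are uncertain for that reason as well.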

Other observations

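Several of the genes with the smallest p lay near each other on chromosome 2. This was seen in the values and then described, so it carries no test, and the stretch is bounded by 2 of these genes. A share of about 0.05 is expected at an unadjusted p under 0.05 where no gene differs. From the start of Dph6 at 114516416 to the end of Fam227b at 126152153 on chromosome 2 (GRCm38) 112 genes were tested. The resilient libraries were wholly above the control libraries in 11 of them (9.82%) and wholly below in 0, beside 3.27% and 3.16% of all genes. An unadjusted p under 0.05 was found in 5 of them (4.46%), beside 1.43% of all genes, and these 5 were higher (0.362% of all genes): Exd1, Tmem87a, Dph6, Knstrn and Fam227b. Fam227b had CPM of 0.20000, 0.156 and 0.354 in the control and 0.9205, 1.12 and 1.89 in the resilient libraries, a log2 difference of 2.46 ± 0.56.

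Eif3j2, which encodes a subunit of translation initiation factor 3, also lay above in all resilient libraries, with CPM of 0.76001, 0.622 and 0.487 in the control and 1.84, 2.53 and 2.36 in the resilient libraries and a difference of 1.84 ± 0.42. It lies on chromosome 18, and its transcript matches that of Eif3j1, which lies in the same stretch of chromosome 2, in 2365 of 2369 aligned bases (99.8%). Reads of the pair can therefore be exchanged, and the value of Eif3j2 is uncertain. Eif3j1 itself had CPM of 65.6, 46.1 and 39.9 in the control and 46.5, 34.4 and 40.8 in the resilient libraries, a difference of -0.32 ± 0.31.

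Control libraries at a low Tmem87a level also occurred elsewhere, at 0.451 CPM in 1 control library of the prefrontal cortex and 1.75 in 1 of the nucleus accumbens. The remaining control libraries there were at 3.41 and 3.75 CPM in the cortex and 5.11 and 4.85 in the accumbens. Low levels were not limited to control libraries. Stressed libraries ran from 0.904 to 6.57 CPM in the cortex and from 1.46 to 3.13 in the accumbens. What sets the Tmem87a level was not tested.

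Igfbp2, which binds insulin-like growth factors and is made by astrocytes, was singled out after its values were seen. It had CPM of 193, 135 and 176 in the control and 72.3, 81.3 and 86.7 in the resilient libraries, all resilient libraries below, with a difference of -1.07 ± 0.46. The stressed libraries ran from 96.96 to 490.4 with a median of 208 CPM. Igf2, given above, and Pcolce, a collagen processing protein, were also below in all resilient libraries, Pcolce with CPM of 10.1, 14.9 and 23.04 in the control and 5.48, 6.29 and 4.53 in the resilient libraries. Meningeal markers had summed levels of 198, 101 and 287 CPM in control and 90.2, 83.3 and 142 in resilient libraries, which overlap. Their part in the Igfbp2 values was not tested.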
